A study of Homo sapiens with 16 samples.

Results

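The 35 genes described here encode enzymes of glycolysis, kinases that switch its flux, the oxygen-sensing subunit HIF1A and its prolyl hydroxylases, and other genes known to respond to low oxygen. They were picked by gene symbol from the 20612 genes of the deposited RNA-seq table, by a rule that uses no measured value, although earlier results of these data were known when the list was drawn up. All 35 were in the table and 34 had a mean of at least 0.5 RPKM (read counts scaled by transcript length and library size), the level required for testing. The exception was CA9, a cell-surface carbonic anhydrase, with a mean of 0.192 RPKM.

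RNA was taken from HCT116, an established human colorectal cancer cell line, in its p53+/+ form and an isogenic p53-/- form. Each genotype received DMSO vehicle, 5 µM Nutlin-3A, 2.5 µM Entinostat or both agents together for 8 hours, and the doses used in the combination are not given separately. Each of these 8 groups had 2 libraries, 16 in all, and comparing the genotypes asks which responses need p53. Nutlin-3A blocks the binding of MDM2 to p53, and Entinostat inhibits class I histone deacetylases. All groups were grown in a medium supplemented with pyruvate and glutamine, and the labels name no low-oxygen treatment. They do not say whether replicates came from separate cultures or whether the p53-/- line is a single clone, so p-values measure the spread between these libraries, which may be technical.

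Glycolysis converts glucose to pyruvate. Hexokinases trap glucose in the cell, phosphofructokinases commit it to the pathway, and aldolase, GAPDH, enolase and pyruvate kinase carry it on. Lactate dehydrogenase then reduces pyruvate to lactate, while pyruvate dehydrogenase kinases (PDK1, PDK3) hold it back from the mitochondria. Most of these steps have several related enzymes encoded by separate genes. HIF1A is the oxygen-regulated part of a transcription factor that raises many of these genes in hypoxia, and in normal oxygen EGLN1 and EGLN3 hydroxylate it, which marks it for degradation. Its control is largely at the level of protein, which these data do not measure.

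The promoters of the 6 genes called with Entinostat in both genotypes are printed because these genes carry the main response below. Each run is the 250 bases before the first listed transcription start, 5′ to 3′ on the gene's strand, from RefSeq on GRCh38.p14. Capitals mark ACGTG or GCGTG on either strand, the core of the element to which HIF binds. The core overlaps the E-box CACGTG, which then counts once on each strand.
HK2 (chr2:74833877-74834126, plus strand): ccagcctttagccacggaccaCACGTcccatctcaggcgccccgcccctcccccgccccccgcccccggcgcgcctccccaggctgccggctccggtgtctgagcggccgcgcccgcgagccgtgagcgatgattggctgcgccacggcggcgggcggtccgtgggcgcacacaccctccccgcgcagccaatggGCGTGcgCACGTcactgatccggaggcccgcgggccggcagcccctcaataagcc
ENO2 (chr12:6914330-6914579, plus strand): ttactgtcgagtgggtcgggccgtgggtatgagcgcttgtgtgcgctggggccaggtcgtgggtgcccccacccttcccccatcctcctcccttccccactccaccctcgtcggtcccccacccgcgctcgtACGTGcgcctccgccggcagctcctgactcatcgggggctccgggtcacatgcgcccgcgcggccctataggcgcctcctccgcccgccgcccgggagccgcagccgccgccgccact
PDK3 (chrX:24465036-24465285, plus strand): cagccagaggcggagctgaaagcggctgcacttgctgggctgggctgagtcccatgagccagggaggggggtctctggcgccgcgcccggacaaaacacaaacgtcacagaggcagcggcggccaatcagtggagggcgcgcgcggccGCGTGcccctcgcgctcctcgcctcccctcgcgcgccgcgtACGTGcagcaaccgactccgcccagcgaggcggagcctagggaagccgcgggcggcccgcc
EGLN3 (chr14:33951075-33951324, minus strand): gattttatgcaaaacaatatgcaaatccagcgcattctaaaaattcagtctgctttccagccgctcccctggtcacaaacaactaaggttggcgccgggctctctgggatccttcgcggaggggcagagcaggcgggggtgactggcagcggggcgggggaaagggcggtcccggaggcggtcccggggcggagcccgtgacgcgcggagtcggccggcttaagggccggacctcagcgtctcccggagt
P4HA1 (chr10:73096867-73097116, minus strand): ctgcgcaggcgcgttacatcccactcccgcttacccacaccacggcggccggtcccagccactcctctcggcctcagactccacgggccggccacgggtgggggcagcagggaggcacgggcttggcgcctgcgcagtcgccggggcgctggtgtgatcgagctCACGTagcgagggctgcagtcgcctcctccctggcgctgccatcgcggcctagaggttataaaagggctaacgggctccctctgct
PLOD2 (chr3:146161185-146161434, minus strand): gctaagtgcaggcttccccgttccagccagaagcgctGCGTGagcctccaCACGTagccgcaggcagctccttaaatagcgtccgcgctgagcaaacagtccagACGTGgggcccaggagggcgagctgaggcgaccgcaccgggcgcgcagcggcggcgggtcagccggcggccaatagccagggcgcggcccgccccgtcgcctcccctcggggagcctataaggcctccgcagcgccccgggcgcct
In this window the runs of HK2 and PLOD2 held 3 cores each, that of PDK3 held 2, and those of ENO2 and P4HA1 held 1 each. EGLN3 had no match, which says only that these letters are not in this window. Of the 35 genes 32 had an entry, VEGFA, NDRG1 and BNIP3L being without one. At the first listed start of each gene, at least 1 core was present in 22 of the 32 (68.8%). The same count over all genes with an entry, with no filter on expression, was 11763 of 27305 (43.1%). Other starts were not counted, and some genes without a core at the first start, such as PDK1, had one at another.

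The libraries held 45902800 to 55507300 alignments. As a check of the labels, MDM2, a target of p53, had 20.4 and 20 RPKM (replicates 1 and 2, the order kept throughout) under DMSO and 328 and 268 under Nutlin-3A in p53+/+ cells, and 14.6 and 14.7 against 18.3 and 22.1 in p53-/- cells. The epithelial markers EPCAM, CDH1, KRT8, KRT18, KRT19 and CDX2 were present in every library, whereas VIL1, CDX1, LGR5 and ASCL2 stayed at or below 0.129 RPKM in each. White blood cell markers (PTPRC, CD3E, CD14) and endothelial markers (PECAM1, VWF, CDH5) reached at most 0.238 RPKM per gene. Among 4 fibroblast markers COL1A2, PDGFRB and THY1 reached at most 0.134 RPKM per gene, and COL1A1 ranged from 2 to 5.8 RPKM.

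Levels differed widely among the 35 genes. Over the 16 libraries GAPDH averaged 2960 RPKM, ENO1 842, LDHB 739, PKM 578, TPI1 565 and LDHA 429. Hexokinases were far lower, at 23.3 RPKM for HK1 and 11.2 for HK2. At the low end stood EGLN3 with 2 RPKM, ANKRD37 with 1.95, PDK3 with 1.82 and PDK1 with 1.6. The summed RPKM of the 17 glycolytic and lactate dehydrogenase genes was 7580 and 7090 in the p53+/+ DMSO libraries and 7970 and 7400 in the p53-/- ones. It was 8820 and 7800 in p53+/+ cells under the combination and lay between 6330 and 7620 in the other 5 drug-treated groups. GAPDH weighs most in this sum, with 3020 and 2760 RPKM under DMSO and 4090 and 3390 under the combination in p53+/+ cells. In RNA from whole cultures, fewer cells making a transcript and less of it per cell cannot be told apart. Several of these genes (GAPDH, PGK1, PGAM1, ENO1, LDHA, LDHB, ALDOA, TPI1, PKM) have near-identical pseudogene copies, so how their reads were divided is uncertain. Exons of P4HA2, PFKM, ENO1, HIF1A and TPI1 overlap those of opposite-strand genes that are also in the table, and PGK1 overlaps ATP7A on its own strand. Further members, among them ALDOA, LDHB, GAPDH, ALDOC, PDK1 and VEGFA, overlap genes under names that are not in the table, and no source used here says whether reads were counted by strand.

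Entinostat raised some of these genes and lowered others in both genotypes. In p53+/+ cells HK1, ENO2, PDK3, EGLN3, P4HA1, PLOD2 and KDM3A rose and HK2 fell. In p53-/- cells ENO2, PDK3, EGLN3, P4HA1 and PLOD2 rose, and HK2, GPI, PFKL and ALDOA fell. A gene is said to rise or fall where limma's adjusted p was under 0.05. That is 8 of 34 genes (23.5%) in p53+/+ cells beside 27.5% of all 12466 genes tested, and 9 of 34 (26.5%) beside 28.2% in p53-/- cells, so the shares were near the background. Of all genes, 15.1% rose and 12.4% fell in p53+/+ cells, and 15% rose and 13.3% fell in p53-/- cells. A replicate block gave 18 calls (44.6% of all genes) and 17 (45.5%). The median log2 change over the 34 genes was 0.01 in p53+/+ and 0.05 in p53-/- cells, beside 0.01 and 0.02 over all genes.

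**Figure D1:**
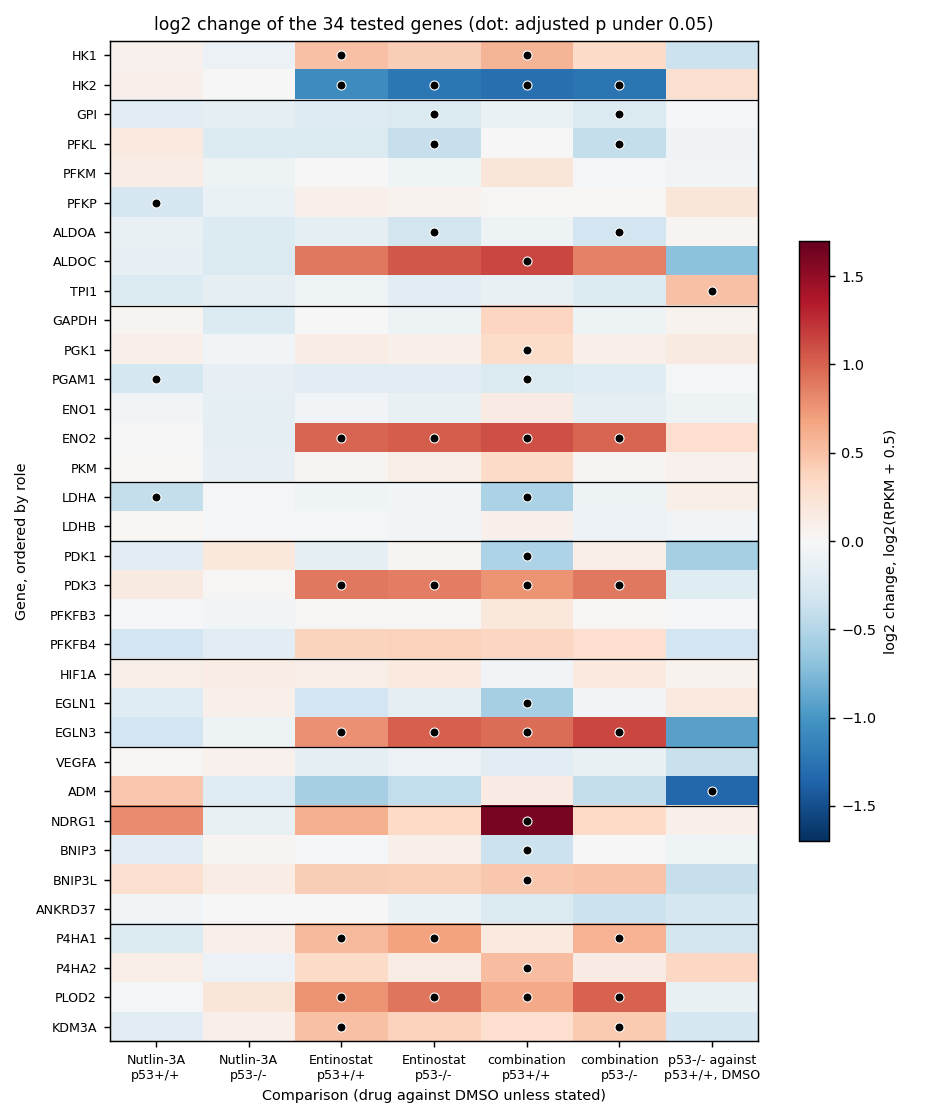
log2 change, on the log2(RPKM + 0.5) scale, of the 34 tested genes in 7 comparisons, with genes as rows ordered by role, red for higher and blue for lower, and a dot where the adjusted p was under 0.05. HK2 is blue and ENO2, PDK3, EGLN3 and PLOD2 are red with a dot in the 4 columns with Entinostat or the combination, while the Nutlin-3A column of p53-/- cells has no dot.

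The hexokinases moved in opposite directions. HK2, the inducible isoform, had 14.5 and 13.6 RPKM under DMSO and 5.76 and 7.17 under Entinostat in p53+/+ cells, and 15.6 and 18.5 against 5.7 and 8.44 in p53-/- cells. Both treated libraries lay below both controls in each genotype. HK2 fell 2.17-fold in p53+/+ (log2 change -1.07 ± 0.21 SE, adjusted p = 0.0043) and 2.41-fold in p53-/- cells (-1.23 ± 0.21, adjusted p = 0.0021), folds being ratios of mean RPKM. HK1, the isoform of most resting tissues, went from 23.4 and 20.5 to 32.9 and 29.6 RPKM in p53+/+ cells and rose 1.42-fold (log2 change 0.5 ± 0.15, adjusted p = 0.031). HK1 in p53-/- cells had 17.1 and 16.8 RPKM under DMSO and 26.2 and 20 under Entinostat, a log2 change of 0.42 ± 0.15 that missed the threshold (adjusted p = 0.059, and 0.0019 with the replicate block). As a share of the RPKM of both hexokinases, HK2 went from 38.2% and 39.8% to 14.9% and 19.5% in p53+/+ cells and from 47.8% and 52.4% to 17.9% and 29.7% in p53-/- cells.

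Among the enzymes from glucose 6-phosphate to pyruvate, ENO2 rose under Entinostat in both genotypes. ENO2, a neuronal isoform of enolase, had 21.4 and 19.8 RPKM under DMSO and 41 and 41.4 under Entinostat in p53+/+ cells, and 27.6 and 22.7 against 60.8 and 43.5 in p53-/- cells. The groups did not overlap, and ENO2 rose 2.0-fold (0.99 ± 0.16, adjusted p = 0.0019) and 2.08-fold (1.03 ± 0.16, adjusted p = 0.0016). ENO1, the main enolase, changed by -0.05 (95% confidence interval -0.28 to 0.17) and -0.13 (-0.36 to 0.1). ALDOC, the minor aldolase, had 21.5 and 12 RPKM under DMSO and 36.5 and 25.1 under Entinostat in p53+/+ cells, and 12.5 and 7.5 against 27.3 and 15.8 in p53-/- cells. Replicate 1 was the higher library in each of these groups, and the log2 changes of ALDOC, 0.89 ± 0.39 and 1.06 ± 0.39, missed the threshold without the replicate block (adjusted p = 0.11 and 0.061) and passed it with the block (0.00029 and 0.00012). The main aldolase ALDOA, the isomerase GPI and the liver-type phosphofructokinase PFKL fell by 0.31, 0.24 and 0.39 on the log2 scale in p53-/- cells (adjusted p = 0.025, 0.047 and 0.016). In p53+/+ cells PFKL changed by -0.25 and GPI by -0.22 (adjusted p = 0.086 and 0.072).

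Of the 4 switch kinases, PDK3 responded. PDK3 had 1.27 and 1.21 RPKM under DMSO and 2.71 and 2.78 under Entinostat in p53+/+ cells, and 0.968 and 1.07 against 2.37 and 2.18 in p53-/- cells. Replicates lay close together in both groups, and PDK3 rose 2.21-fold (0.9 ± 0.13, adjusted p = 0.0011) and 2.23-fold (0.87 ± 0.13, adjusted p = 0.0012). PDK1, the classical hypoxia-induced isoform, had 2.54 and 1.82 RPKM under DMSO and 1.64 and 2.14 under Entinostat in p53+/+ cells, which overlap, and 1.43 and 1.16 against 1.42 and 1.25 in p53-/- cells. PFKFB3 and PFKFB4 make the activator of phosphofructokinase, and their log2 changes were 0.02 in both genotypes for PFKFB3 and 0.38 and 0.39 for PFKFB4 (adjusted p = 0.18 and 0.17, and 0.023 and 0.021 with the replicate block).

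Of the oxygen-sensing genes, EGLN3 rose in both genotypes. It had 1.9 and 1.65 RPKM under DMSO and 3.92 and 2.97 under Entinostat in p53+/+ cells, and 0.838 and 0.576 against 2.67 and 1.34 in p53-/- cells. The groups did not overlap, although the p53-/- Entinostat libraries differed from each other by more than their p53+/+ counterparts. EGLN3 rose 1.94-fold (0.78 ± 0.25, adjusted p = 0.034) and 2.84-fold (1.01 ± 0.25, adjusted p = 0.011). EGLN1, the main hydroxylase of HIF1A in normal oxygen, had 7.05 and 6.51 RPKM under DMSO and 4.92 and 5.8 under Entinostat in p53+/+ cells (-0.32, adjusted p = 0.053, and 0.011 with the replicate block). EGLN1 in p53-/- cells had 7.54 and 7.71 against 6.35 and 7.19 RPKM. HIF1A itself had 30.7 and 34.1 against 33.6 and 35.8 RPKM in p53+/+ cells, a log2 change of 0.1 (-0.14 to 0.34), and changed by 0.16 (-0.07 to 0.4) in p53-/- cells.

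Of 4 iron- and oxoglutarate-dependent dioxygenases outside the EGLN family, 3 rose in p53+/+ and 2 in p53-/- cells. Of all genes 15.1% and 15% rose, and 4 genes are too few for a share to describe this class. PLOD2, which hydroxylates collagen lysines, had 7.31 and 5.12 RPKM under DMSO and 12.4 and 9.36 under Entinostat in p53+/+ cells, and 6.35 and 4.95 against 12.1 and 10 in p53-/- cells. It rose 1.75-fold (0.77 ± 0.19, adjusted p = 0.012) and 1.95-fold (0.91 ± 0.19, adjusted p = 0.0051), with no overlap between the groups. P4HA1, a collagen prolyl hydroxylase subunit, had 12.1 and 10.8 against 16.5 and 17.4 RPKM in p53+/+ cells, and 9.32 and 8.85 against 16.6 and 13.3 in p53-/- cells. It rose 1.48-fold (0.55 ± 0.13, adjusted p = 0.0096) and 1.65-fold (0.68 ± 0.13, adjusted p = 0.0035). KDM3A, a histone H3 lysine demethylase, had 12.8 and 10.5 against 18 and 15.4 RPKM in p53+/+ cells and rose 1.43-fold (0.5 ± 0.15, adjusted p = 0.028), and in p53-/- cells it had 9.92 and 9.07 against 14.1 and 11.3 RPKM (0.39, adjusted p = 0.071, and 0.0016 with the block). P4HA2, the other catalytic subunit of collagen prolyl hydroxylase, had log2 changes of 0.32 and 0.13 and missed the threshold in both genotypes (adjusted p = 0.076 and 0.47, and 0.02 and 0.32 with the block). COL1A1, the fibroblast marker detected in these cells, rose by 0.79 and 0.69 in the same comparisons, and the summed RPKM of the 4 fibroblast markers went from 2.43 to 4.53 in p53+/+ and from 2.31 to 4.05 in p53-/- cells. COL1A2, PDGFRB and THY1 stayed near 0.

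Fits with a library left out, here and below, were run without the replicate block, so an offset between replicate numbers was not removed from them. The calls of ENO2 and PDK3 were kept in both genotypes when each library was left out in turn, and that of HK2 in p53-/- cells was too. In p53+/+ cells, leaving out Entinostat replicate 1 gave adjusted p = 0.055 for HK2, 0.055 for P4HA1, 0.13 for PLOD2, 0.2 for HK1, 0.21 for KDM3A and 0.23 for EGLN3. Leaving out DMSO replicate 2 gave 0.082 for P4HA1, 0.12 for PLOD2, 0.16 for EGLN3, 0.19 for HK1 and 0.2 for KDM3A. Without DMSO replicate 1 the values were 0.06 for HK1 and 0.084 for EGLN3, and without Entinostat replicate 2 HK1 had 0.053. In p53-/- cells, leaving out Entinostat replicate 1 gave adjusted p = 0.053 for P4HA1, 0.062 for PLOD2, 0.12 for ALDOA, 0.13 for EGLN3 and PFKL and 0.3 for GPI. Leaving out DMSO replicate 2 gave 0.051 for PLOD2, 0.086 for EGLN3, 0.091 for PFKL, 0.1 for ALDOA and 0.22 for GPI. Without DMSO replicate 1 the values were 0.056 for PFKL, 0.085 for GPI and 0.09 for ALDOA, and without Entinostat replicate 2 they were 0.05 for GPI and 0.078 for ALDOA.

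The Entinostat comparisons of the 2 genotypes share no library and can be set side by side. Of the 11 genes called in either genotype, 6 were called in both, which is 6 of 8 in p53+/+ and 6 of 9 in p53-/- cells. All 11 had the same sign in both, as did 30 of the 34 tested. Across the 34 genes the log2 changes had a Pearson correlation of 0.97 and a Spearman correlation of 0.94, given as a description because genes are not independent. The shared calls, signs and correlations were not computed over all tested genes, so this agreement cannot be called particular to the 34. In the test of the difference between genotypes 0 of the 34 genes passed in limma, beside 0% of all genes. With the replicate block 0 passed, beside 0.0321%. At an unadjusted limma p under 0.05 there were 0 of the 34, a threshold not counted over all genes. The differences ran from -0.23 (EGLN3, -0.98 to 0.53) to 0.26 (NDRG1, -0.6 to 1.12), and the width of these intervals shows that differences of moderate size would not have been detected.

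**Figure D2:**
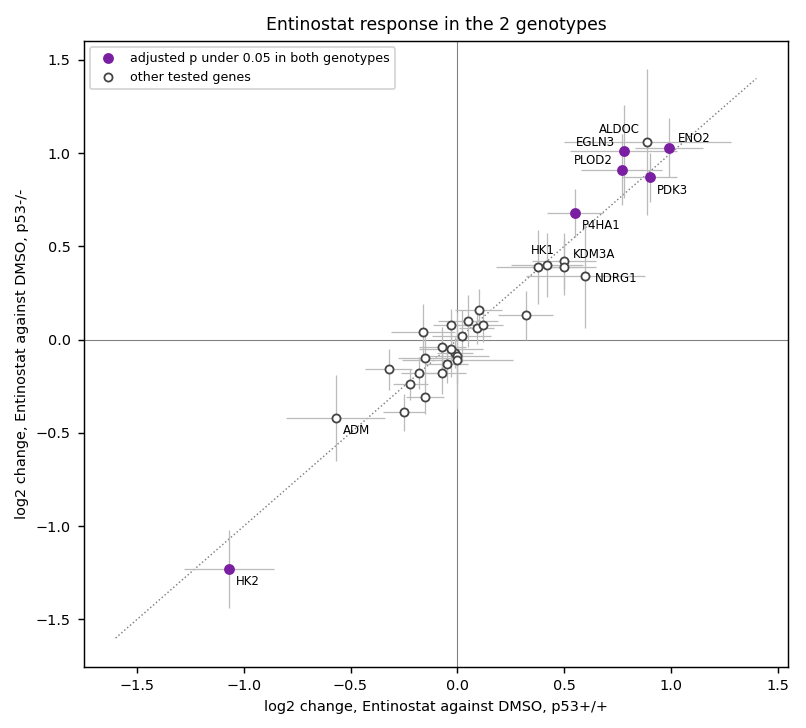
Each circle is 1 of the 34 tested genes, placed by its log2 change under Entinostat against DMSO in p53+/+ cells (horizontal axis) and p53-/- cells (vertical axis), both on the log2(RPKM + 0.5) scale. Lines through the circles are ± 1 SE, the dotted line marks equal change, and filled circles are the 6 genes called in both genotypes, with HK2 alone at the lower left (-1.07 and -1.23).

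Because several steps have related enzymes, the log2 ratio of RPKM was taken for pairs of them. It was compared between the 8 libraries with Entinostat (alone or in the combination) and the 8 without it. EGLN2 and PDK2 were in no pair, although their means were higher than those of the paired genes. EGLN2 had a mean of 18.2 RPKM beside 6.54 for EGLN1. PDK2 had 9.03 beside 1.6 for PDK1 and 1.82 for PDK3. The test was chosen after the values were seen. It was a two-sided exact permutation test that exchanged libraries only within a genotype and Nutlin-3A status (1296 assignments, smallest possible p = 0.0015), adjusted over 12 pairs. Libraries with the same replicate number were not kept together in this test. The phosphofructokinase ratios share genes, so they are not independent tests. The largest shift on this scale was that of HK2 over HK1, -1.69 (adjusted p = 0.0023 by the permutation test). It lay between -1.88 and -1.57 in the 4 combinations of genotype and Nutlin-3A status. Some ratios of the less to the more abundant enzyme of a pair, by mean RPKM, were higher with Entinostat. They were EGLN3 over EGLN1 (1.31), ALDOC over ALDOA (1.21), ENO2 over ENO1 (1.06) and PFKFB4 over PFKFB3 (0.4), and PDK3 over PDK1 went up by 0.95. These 5 had adjusted p = 0.0023 by the exact permutation test. Among the phosphofructokinases, PFKL over PFKP shifted by -0.38 and PFKL over PFKM by -0.25, both with adjusted p = 0.0023 by that exact test, and PFKM over PFKP by -0.13 (adjusted p = 0.013). BNIP3L over BNIP3, a pair of mitophagy receptors, shifted by 0.39 (adjusted p = 0.0041). P4HA1 over P4HA2 shifted by 0.25 (adjusted p = 0.044), but with -0.03 in the lowest of the 4 combinations. LDHA over LDHB shifted by -0.06 (adjusted p = 0.59).

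**Figure D3:**
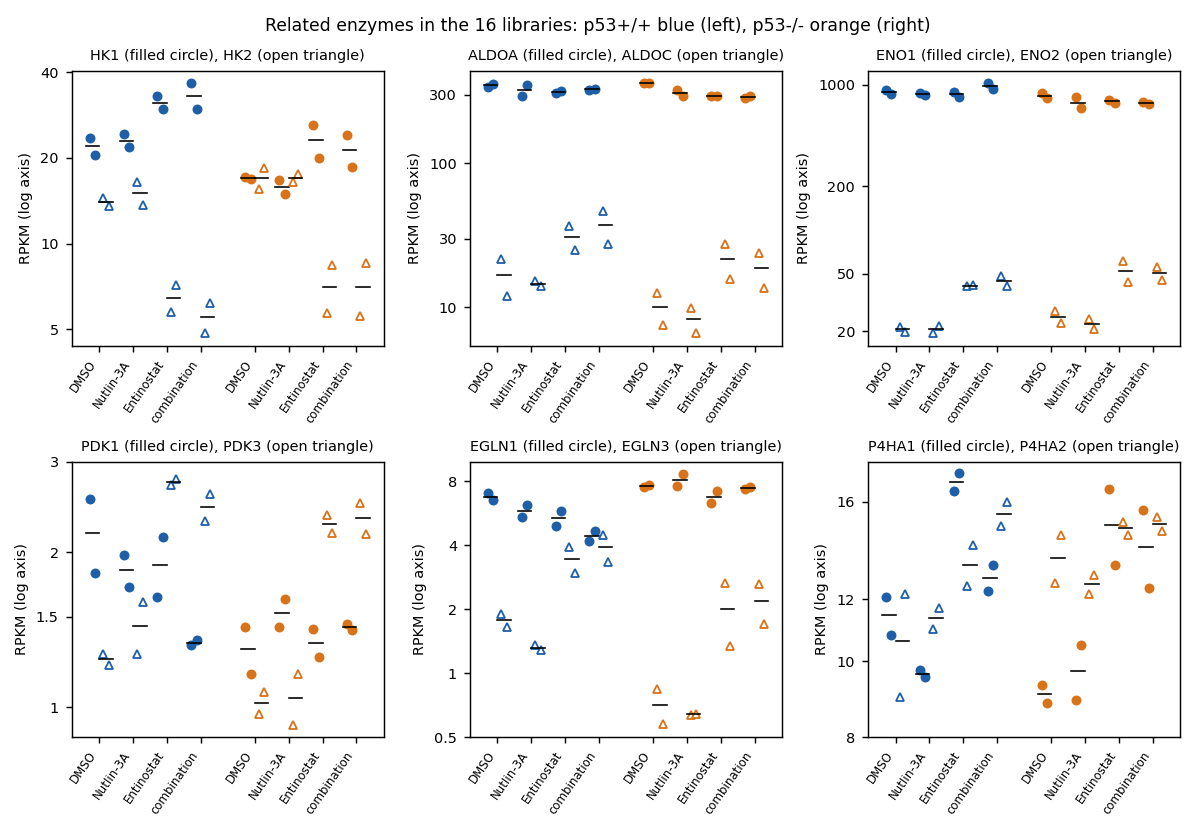
RPKM on log axes of 6 pairs of related enzymes in each of the 16 libraries, with filled circles for the first gene, open triangles for the second, a line at the mean of 2 replicates, p53+/+ in blue on the left and p53-/- in orange on the right of each panel. HK1 and HK2 move apart, and ENO2, ALDOC, PDK3 and EGLN3 move up with Entinostat and the combination in both genotypes.

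Nutlin-3A lowered a few abundant enzymes in p53+/+ cells. LDHA, PGAM1 and PFKP fell, and no gene of the 34 rose. These 3 genes are 8.82% of those tested, beside 17.4% of all genes (7.89% higher and 9.5% lower), and the median log2 change of the 34 was -0.03 beside -0.02 over all genes. With the replicate block 7 were called (31.5% of all genes), the additional ones being NDRG1 and ADM, which were higher, and GPI and TPI1, which were lower.

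LDHA, the lactate dehydrogenase subunit that favours lactate production, had 444 and 464 RPKM under DMSO and 320 and 363 under Nutlin-3A. PGAM1, a phosphoglycerate mutase, had 339 and 338 against 262 and 286 RPKM. PFKP, the platelet-type phosphofructokinase, had 99.6 and 110 against 82.6 and 89.7 RPKM. In each of these genes both treated libraries lay below both controls, and the falls were 1.33-fold for LDHA (-0.41 ± 0.11, adjusted p = 0.024), 1.23-fold for PGAM1 (-0.3 ± 0.085, adjusted p = 0.028) and 1.22-fold for PFKP (-0.28 ± 0.081, adjusted p = 0.033). All 3 calls were lost without some single libraries, in fits without the replicate block. Without Nutlin-3A replicate 1 the adjusted p was 0.19 for LDHA, 0.2 for PGAM1 and 0.21 for PFKP, without DMSO replicate 2 it was 0.14, 0.13 and 0.25, and without DMSO replicate 1 it was 0.08 for LDHA and 0.12 for PGAM1. LDHB changed by 0.03 (-0.29 to 0.35). As a share of the RPKM of both subunits, LDHA went from 35.3% and 40% to 27.5% and 34.2%, and these ranges do not overlap.

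Under the same treatment NDRG1, a stress-induced gene known to respond to both hypoxia and p53, had 16.3 and 11.7 RPKM under DMSO and 26.9 and 22.7 under Nutlin-3A in p53+/+ cells. That is 1.77-fold higher with no overlap, but the adjusted p was 0.065 (log2 change 0.81 ± 0.28), and 4.2e-05 with the replicate block. ADM, which encodes the vasodilator peptide adrenomedullin, had 24.1 and 22.7 against 30.8 and 34.1 RPKM (0.46, adjusted p = 0.2, and 0.045 with the block). In p53-/- cells 0 of the 34 genes passed under Nutlin-3A and 0 with the replicate block, beside 0% of all genes in each. At an unadjusted limma p under 0.05 there were 2 of the 34 in these cells, a threshold not counted over all genes. There the log2 changes ran from -0.25 (ALDOC) to 0.2 (PLOD2), with NDRG1 at 16.4 and 13 against 15.6 and 11.6 RPKM and LDHA at 493 and 480 against 467 and 488 RPKM.

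The difference between genotypes in the Nutlin-3A response passed the test for 0 of the 34 genes in limma, beside 6.78% of all genes. At an unadjusted limma p under 0.05 there were 3 of the 34, a threshold not counted over all genes. With the replicate block 2 passed (17.1% of all genes), NDRG1 with a difference of 0.93 (adjusted p = 0.22 without and 0.00056 with the block) and LDHA with -0.39 (0.2 and 0.024). Without p53-/- Nutlin-3A replicate 1, PFKL passed with a difference of 0.54, but the share of all genes passing in that fit is not given here.

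**Figure D4:**
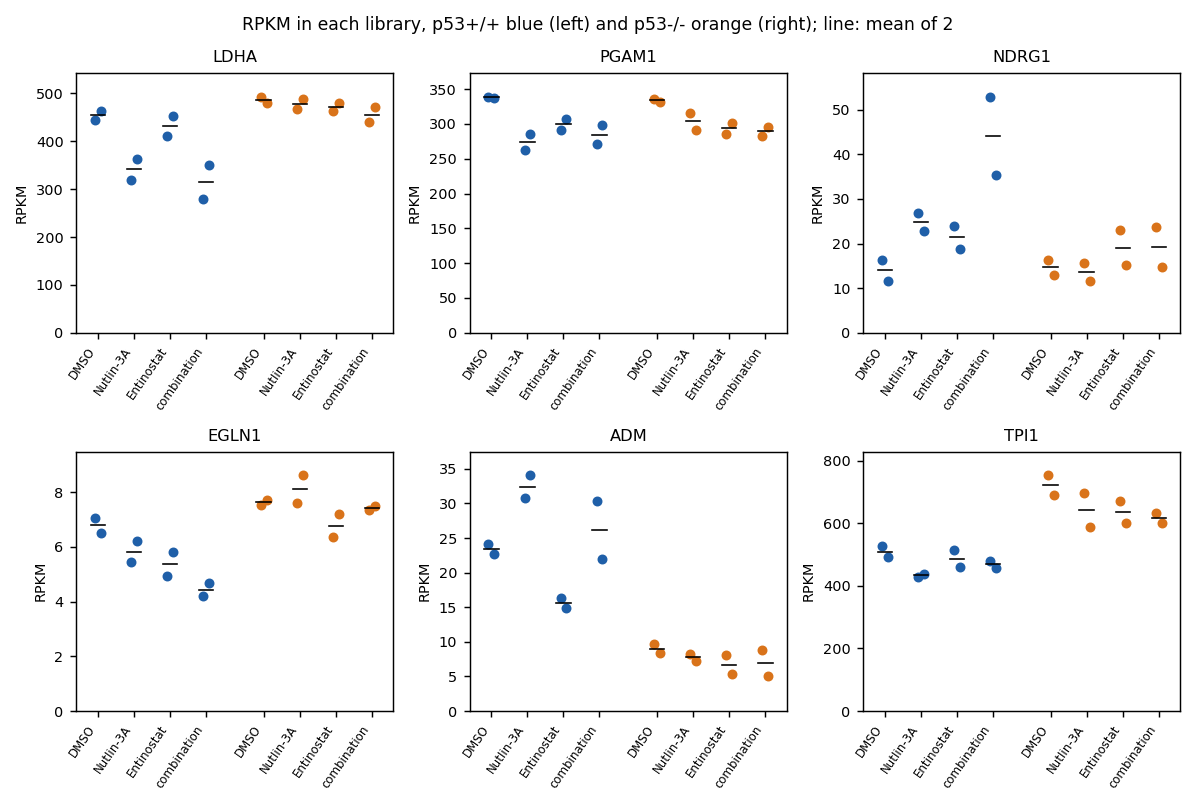
RPKM on axes that start at 0 of LDHA, PGAM1, NDRG1, EGLN1, ADM and TPI1 in each of the 16 libraries, with p53+/+ in blue on the left, p53-/- in orange on the right of each panel and a line at the mean of 2 replicates. In the p53+/+ combination libraries LDHA has 279 and 350 and NDRG1 its highest values (52.9 and 35.4), and ADM is lower in every p53-/- library than in any p53+/+ one.

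Under the combination in p53+/+ cells 10 genes rose and 6 fell. HK1, ALDOC, PGK1, ENO2, PDK3, EGLN3, NDRG1, BNIP3L, P4HA2 and PLOD2 were the higher ones, and HK2, PGAM1, LDHA, PDK1, EGLN1 and BNIP3 the lower ones. These 16 genes are 47.1% of those tested, beside 50% of all genes (23.2% higher and 26.8% lower), with 21 called (64% of all genes) under the replicate block, and the median of the 34 was 0.15 beside -0.03 over all genes. The comparisons with DMSO share their DMSO libraries within a genotype.

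NDRG1 reached 52.9 and 35.4 RPKM under the combination from 16.3 and 11.7 under DMSO, a 3.15-fold rise (1.61 ± 0.28, adjusted p = 0.00071). Both libraries lay above all other 14 libraries. LDHA fell 1.44-fold to 279 and 350 RPKM (-0.54 ± 0.11, adjusted p = 0.0021). EGLN1 fell 1.53-fold to 4.19 and 4.67 RPKM (-0.56 ± 0.11, adjusted p = 0.0016). PDK1 fell 1.63-fold to 1.32 and 1.35 RPKM (-0.53 ± 0.15, adjusted p = 0.013). HK2 at 4.85 and 6.21, ENO2 at 48.4 and 41.2, PDK3 at 2.3 and 2.6 and EGLN3 at 4.48 and 3.35 RPKM differed from DMSO in the same direction as under Entinostat, with log2 changes of -1.28, 1.1, 0.76 and 0.95. ALDOC rose 2.21-fold to 46.4 and 27.5 RPKM (1.13 ± 0.39, adjusted p = 0.03). HK1 was at 36.6 and 29.6, PLOD2 at 9.87 in both libraries and P4HA2 at 14.9 and 16 RPKM against 9.01 and 12.2 under DMSO, with log2 changes of 0.58, 0.65 and 0.53.

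The mitophagy receptors BNIP3 and BNIP3L parted. BNIP3 had 20.2 and 17.8 RPKM under DMSO and 14.6 and 14.8 under the combination (-0.36, adjusted p = 0.0048), while BNIP3L had 8.78 and 6.8 against 9.74 and 12 (0.46, adjusted p = 0.044). PGK1, phosphoglycerate kinase, rose by 0.31 and PGAM1 fell by 0.25 (adjusted p = 0.017 and 0.028). GAPDH, at 4090 and 3390 RPKM, and PKM, at 749 and 623, were higher than under DMSO by 0.37 and 0.33 but missed the threshold (adjusted p = 0.053 and 0.058, and 0.00068 and 0.001 with the replicate block).

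The calls of HK2, ENO2, LDHA, PDK3, EGLN1 and NDRG1 in this comparison were kept without each of the 4 libraries in turn. Without combination replicate 1 the adjusted p was 0.056 for PLOD2, 0.06 for PDK1, 0.069 for EGLN3, 0.088 for HK1, 0.1 for PGK1, 0.18 for PGAM1 and 0.22 for ALDOC. Without DMSO replicate 2 it was 0.052 for EGLN3, 0.073 for HK1, 0.1 for PGAM1, 0.14 for PGK1, 0.15 for PLOD2, 0.23 for ALDOC and 0.3 for BNIP3L. Without DMSO replicate 1 it was 0.054 for P4HA2, 0.055 for BNIP3, 0.096 for PGAM1 and 0.13 for PDK1, and without combination replicate 2 BNIP3L had 0.22.

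Against Nutlin-3A alone in p53+/+ cells, the combination was higher for 12 genes and lower for 2, which is 41.2% beside 34.7% of all genes (16.6% higher and 18.1% lower), and the replicate block gave 19 (52.4%). EGLN3 rose 2.98-fold (1.27 ± 0.25, adjusted p = 0.0031), ENO2 2.17-fold (1.1 ± 0.16, adjusted p = 0.0009) and PDK3 1.7-fold (0.61 ± 0.13, adjusted p = 0.0044), and HK2 fell 2.72-fold (-1.37 ± 0.21, adjusted p = 0.00098). These 4 calls were kept without each library in turn. The others that rose were ALDOC (1.27), NDRG1 (0.8), PFKFB4 (0.69), PLOD2 (0.67), HK1 (0.51), KDM3A (0.48), P4HA2 (0.42), P4HA1 (0.39) and PFKP (0.3), and EGLN1 fell by 0.36. PFKFB4 had 4.15 and 3.94 RPKM under Nutlin-3A and 7.14 and 6.48 under the combination, beside 6.01 and 4.42 under DMSO. Without combination replicate 1 these 10 had adjusted p between 0.068 (P4HA2) and 0.3 (NDRG1). Calls among them were also lost without Nutlin-3A replicate 1 (0.06 for KDM3A to 0.12 for P4HA2), Nutlin-3A replicate 2 (0.059 for P4HA2 to 0.19 for NDRG1) and combination replicate 2 (0.081 for P4HA2 and 0.11 for P4HA1).

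Against Entinostat alone in p53+/+ cells, NDRG1 rose 2.06-fold (1.01 ± 0.28, adjusted p = 0.031), LDHA fell 1.37-fold (-0.46 ± 0.11, adjusted p = 0.016) and BNIP3 fell 1.26-fold (-0.33 ± 0.086, adjusted p = 0.025). These 3 of 34 genes are 8.82%, beside 14.8% of all genes (5.16% higher and 9.69% lower), and the replicate block gave 11 (31.3% of all genes). Without combination replicate 1 the adjusted p was 0.24 for NDRG1, 0.16 for LDHA and 0.12 for BNIP3. Without Entinostat replicate 2 it was 0.19, 0.14 and 0.18, and without Entinostat replicate 1 it was 0.059 for NDRG1 and 0.058 for BNIP3.

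In p53-/- cells the combination raised ENO2, PDK3, EGLN3, P4HA1, PLOD2 and KDM3A and lowered HK2, GPI, PFKL and ALDOA. These 10 genes are 29.4% of those tested, beside 31.8% of all genes (17.1% higher and 14.7% lower), and the replicate block gave 17 (48.8%). HK2 had 5.56 and 8.53 RPKM against 15.6 and 18.5 under DMSO (-1.24 ± 0.21, adjusted p = 0.0017), and EGLN3 had 2.64 and 1.71 against 0.838 and 0.576 (1.14 ± 0.25, adjusted p = 0.0056). NDRG1 had 23.7 and 14.7 against 16.4 and 13 RPKM (0.34, adjusted p = 0.38, and 0.011 with the block), and LDHA had 440 and 472 against 493 and 480. The calls of HK2, ENO2, PDK3 and PLOD2 were kept without each library in turn. Without combination replicate 1 the adjusted p was 0.073 for EGLN3, 0.079 for P4HA1, 0.087 for PFKL, 0.12 for ALDOA, 0.28 for KDM3A and 0.31 for GPI, and without DMSO replicate 2 it was 0.051 for EGLN3, 0.076 for PFKL, 0.081 for ALDOA and 0.19 for GPI and KDM3A. Without DMSO replicate 1 it was 0.074 for GPI, 0.075 for ALDOA and 0.084 for KDM3A, and without combination replicate 2 ALDOA had 0.05.

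The combination response differed between genotypes for 0 of the 34 genes in limma, beside 5.78% of all genes at the same adjusted threshold. At an unadjusted limma p under 0.05 there were 9 of the 34, a threshold not counted over all genes. The largest difference was that of NDRG1, 1.27 (0.41 to 2.13, adjusted p = 0.079), followed by PDK1 at -0.64 (adjusted p = 0.099) and EGLN1 at -0.53 (adjusted p = 0.072). With the replicate block 8 passed (23.8% of all genes). NDRG1 (adjusted p = 0.00012), GAPDH (0.0077), ENO1 (0.018) and PFKL (0.043) were then more positive in p53+/+ cells, and EGLN1 (0.011), LDHA (0.011), PDK1 (0.037) and BNIP3 (0.037) more negative. Without p53+/+ combination replicate 2, LDHA, EGLN1 and NDRG1 passed, but the share of all genes passing in that fit is not given here.

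Without drug, the p53-/- line differed from the p53+/+ line in 2 of the 34 genes (5.88%, beside 4.69% of all genes), and in 9 with the replicate block (13.1%). ADM had 24.1 and 22.7 RPKM in p53+/+ and 9.62 and 8.39 in p53-/- cells, 2.6-fold lower in the latter (-1.33 ± 0.23, adjusted p = 0.005). It stayed between 5 and 9.62 RPKM in the 8 p53-/- libraries and between 14.9 and 34.1 in the 8 p53+/+ libraries. TPI1, triose phosphate isomerase, had 526 and 492 against 754 and 692 RPKM, 1.42-fold higher in p53-/- cells (0.5 ± 0.11, adjusted p = 0.016). EGLN3 was 2.51-fold lower in p53-/- cells and missed the threshold (-0.92 ± 0.25, adjusted p = 0.057, and 0.0018 with the block). Without p53+/+ DMSO replicate 1 the adjusted p was 0.053 for ADM and 0.078 for TPI1, and without p53-/- DMSO replicate 2 it was 0.062 for both. TPI1 also lost its call without p53-/- DMSO replicate 1 (0.14) and p53+/+ DMSO replicate 2 (0.13).

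The remaining 9 genes of the 34 passed in none of the 12 comparisons, a share that was not computed for all genes. They were the abundant enzymes GAPDH, ENO1, PKM, PFKM and LDHB, the kinase PFKFB3, HIF1A, ANKRD37 and VEGFA. VEGFA, the angiogenic growth factor often used as a readout of hypoxia, had 7.81 to 13.1 RPKM over the 16 libraries, and its drug against DMSO changes lay between -0.19 and 0.07. HIF1A ranged from 28.6 to 40.7 RPKM, with drug against DMSO changes between -0.05 and 0.16. For ANKRD37, a HIF target, replicates of the p53+/+ DMSO group were 3.48 and 1.51 RPKM, and its intervals were as wide as -0.82 to 0.31. CA9 stayed between 0.0549 and 0.406 RPKM in every library and was not tested.

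Other genes of the same pathways, from lists drawn up beside these 35, gave a wider view. Under Nutlin-3A in p53+/+ cells 2 of 15 tested transporters and other glycolytic isoforms rose and none fell, 13.3% beside 17.4% of all genes. SLC2A1, the main glucose transporter, had 19.8 and 18 RPKM under DMSO and 41.8 and 32.8 under Nutlin-3A (0.95, adjusted p = 0.00034), and TIGAR, a p53 target that lowers glycolytic flux, had 2.71 and 3.38 against 10 and 8.74 (1.48, adjusted p = 1e-05). In p53-/- cells SLC2A1 was already at 48.4 and 48 RPKM under DMSO, 2.55-fold above p53+/+ cells (1.33, adjusted p = 7.8e-05), and had 48.6 and 39.8 under Nutlin-3A. Of 25 other tested HIF targets 8 rose and 3 fell under Nutlin-3A in p53+/+ cells, 44% beside that 17.4%, among them KDM4B (1.7), DDIT4 (1.56) and GBE1 (1.06). The replicate block gave 15 of the 25, beside 31.5% of all genes. In p53-/- cells 0 of the 25 passed under Nutlin-3A, beside 0% of all genes. The list was chosen with earlier results of these data known, and whether HIF took part in these changes was not tested. Several of the calls made without the block were lost when single libraries were left out. Some were lost whichever of the 4 libraries was left out. The call of DDIT4 was lost without DMSO replicate 2 (adjusted p = 0.25), Nutlin-3A replicate 1 (0.14) or Nutlin-3A replicate 2 (0.087).

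Under Entinostat 3 of 13 tested genes of HIF subunits and oxygen sensing rose and 3 fell in each genotype, and they were the same 6 genes. That is 46.2% in each, beside 27.5% of all genes in p53+/+ and 28.2% in p53-/- cells, and the replicate block gave 8 (44.6% of all genes) and 10 (45.5%). EPAS1, the HIF2 alpha subunit, had 8.25 and 9.17 RPKM under DMSO and 22.4 and 19.8 under Entinostat in p53+/+ cells (1.23, adjusted p = 0.00052), and 9.47 and 10 against 20.3 and 16.6 in p53-/- cells (0.88, adjusted p = 0.0015). CITED2, which competes with HIF for its coactivators, rose by 0.98 and 1.14, and ARNT, the partner of both HIF alpha subunits, by 0.47 and 0.48. The coactivators EP300 and CREBBP fell by 0.5 and 0.5 in p53+/+ and by 0.48 and 0.45 in p53-/- cells, and the hydroxylase EGLN2 by 0.47 and 0.46. Calls of EPAS1 and EP300 were kept without each library in turn in both genotypes. Without Entinostat replicate 1, CITED2 had adjusted p = 0.12 in p53+/+ and 0.077 in p53-/- cells, CREBBP 0.12 and 0.18 and EGLN2 0.059 and 0.072, and ARNT had 0.051 in p53-/- cells. CITED2 also lost its p53+/+ call without DMSO replicate 1 (0.059) or 2 (0.065), and CREBBP lost its p53+/+ call without DMSO replicate 2 (0.14) or Entinostat replicate 2 (0.051) and its p53-/- call without DMSO replicate 2 (0.21). Among 25 other HIF targets 6 rose and 3 fell in p53+/+ and 7 rose and 2 fell in p53-/- cells, 36% in each beside the same 27.5% and 28.2%, with ANGPTL4 at 1.86 and 1.72. Without Entinostat replicate 1 ANGPTL4 had adjusted p = 0.054 and 0.07. Of 17 tested genes of pyruvate entry, gluconeogenesis and the pentose phosphate pathway 2 fell in each genotype and none rose, 11.8% beside 27.5% and 28.2% of all genes called and 12.4% and 13.3% lower. The replicate block gave 5 and 4 of these 17, and 13 and 12 of the 25 HIF targets. Of 15 tested transporters and other glycolytic isoforms 2 rose and 1 fell in p53+/+ cells (20% beside 27.5% of all genes). In p53-/- cells 1 rose and 1 fell (13.3% beside 28.2%), and the block gave 5 in each genotype. SLC2A1 fell from 19.8 and 18 to 14.4 and 14.3 RPKM, and from 48.4 and 48 to 36.3 and 35.4 in p53-/- cells. PDK4 rose in both genotypes. Calls of SLC2A1 were lost without any 1 library, those of PDK4 without Entinostat replicate 1 or DMSO replicate 2.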

How the data were processed

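Polyadenylated RNA was sequenced from stranded libraries, per the labels' protocols. The authors deposited RPKM per gene for 16 libraries; Bowtie2, hg19 and Partek are named per the submitters' processing notes. Versions, gene models and strand use: not given in the sources used here. Replicate numbers come from the labels, and no 2 columns were identical.

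Values were used as log2(RPKM + 0.5), which understates changes of low genes. The 12466 of 20612 genes (60.5%) with a mean of at least 0.5 RPKM were fitted with limma 3.58.1 in R 4.3.3, as 8 group means over all 16 libraries with an intensity trend (8 residual and 4.09 prior degrees of freedom). Benjamini-Hochberg adjustment ran per comparison over all 12466 genes, with calls at an adjusted p under 0.05. The script was tested on simulated data. The 35 genes and the other lists were chosen with earlier results of these data known. Genes called with an absolute log2 change of at least 0.5 were given per library, and up to 4 called genes per other list were eligible to be named; the test of related enzymes was added after values were seen. VLDLR was not analysed here, and some genes of these lists are not reported here.

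Same-numbered libraries deviated together from their group means in all 28 pairs of groups (correlations 0.27 to 0.78, median 0.43), so the number in the labels was taken to pair them, and values with it as a block stand beside results they change. Promoters came from RefSeq (GRCh38.p14) and shared exon sequence from GENCODE, neither being the authors' gene models. Other pseudocounts, no filter, median of ratios scaling and leaving out each library were also tried.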

Additional observations from a re-analysis of the deposited data

Results flagged for a closer look

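Among the 34 tested genes no difference between genotypes passed the test without the replicate block, but other genes of the related lists did. The Nutlin-3A response was more positive in p53+/+ than in p53-/- cells for FDXR (2.26 on the log2 scale), KDM4B (1.78), TIGAR (1.39), SLC2A1 (1.08) and GBE1 (0.98). GBE1, glycogen branching enzyme, had 9.31 and 9.82 RPKM under DMSO and 23.1 and 18.1 under Nutlin-3A in p53+/+ cells, and 10.5 and 10.3 against 10.7 and 11.3 in p53-/- cells. These 5 calls were kept without each library in turn. KDM4B, a histone demethylase, had 5.58 and 5.39 against 20 and 17.8 RPKM, and 5.07 and 5.17 against 4.95 and 4.67.

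The combination response was more positive in p53+/+ cells for FDXR (2.19), KDM4B (1.53), SLC2A1 (1.05), TIGAR (0.84) and GBE1 (0.62). It was more negative there for DLAT, a subunit of pyruvate dehydrogenase (-0.68), and for the epithelial marker EPCAM (-0.58). These differences come from the interaction term of the limma fit, adjusted over all genes tested, and they share their DMSO libraries with those of Nutlin-3A. Those of FDXR, KDM4B and SLC2A1 were kept without each library in turn. GBE1 (0.1 to 0.16) and EPCAM (0.057 to 0.11) lost their calls without any of the 8 libraries except p53+/+ combination replicate 2. DLAT did too (0.09 to 0.14), but also kept its call without p53-/- combination replicate 1. TIGAR lost its call without p53+/+ DMSO replicate 1 (0.073), p53+/+ combination replicate 1 (0.054), p53-/- DMSO replicate 1 (0.06) or 2 (0.057), or p53-/- combination replicate 2 (0.07).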

How the results depend on the processing

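Of 65 calls of these genes over the 12 comparisons, pseudocounts of 0.1 and 1 and the replicate block kept all 65, median of ratios scaling kept 62 and no filter kept 55. Under all 5 of these settings together 54 were kept, 19 were kept without each library in turn, and none reversed. With the replicate block the number of calls was 7 instead of 3 for Nutlin-3A and 18 instead of 8 for Entinostat in p53+/+ cells, 17 instead of 9 for Entinostat and 17 instead of 10 for the combination in p53-/- cells, 9 instead of 2 between genotypes, 2 and 8 instead of 0 for the genotype differences of the Nutlin-3A and combination responses, and 11 instead of 3 for the combination against Entinostat. The block ended no call. With no filter on low values 5 calls instead of 8 remained for Entinostat in p53+/+ cells, the adjusted p being 0.061 for HK1, 0.074 for EGLN3 and 0.054 for KDM3A. It also ended the calls of ALDOC (0.069) and BNIP3L (0.079) under the combination in p53+/+ cells, KDM3A (0.075) in p53-/- cells, ALDOC (0.06), NDRG1 (0.089) and P4HA1 (0.053) against Nutlin-3A and NDRG1 (0.073) against Entinostat, and it tests more genes. Median of ratios scaling ended those of PFKP under Nutlin-3A (0.057), KDM3A under the combination in p53-/- cells (0.057) and P4HA1 against Nutlin-3A (0.053); the cause was not tested.

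Leaving out each library in turn gave 0 to 3 calls for Nutlin-3A, 2 to 8 for Entinostat and 9 to 18 for the combination in p53+/+ cells, and 0 for Nutlin-3A, 3 to 10 for Entinostat and 5 to 11 for the combination in p53-/- cells. Between genotypes it gave 0 to 3, for the genotype differences 0 to 1 (Nutlin-3A), 0 (Entinostat) and 0 to 3 (combination), and 4 to 14 and 0 to 4 for the combination against Nutlin-3A and Entinostat. A group left with 1 library is then assumed to vary like the others. These fits had no replicate block, so a lost call can also reflect an offset between replicate numbers. The matching shares of all genes are not given here. With 2 libraries a group, moderate changes can be missed.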
